A study of Mus musculus with 6 samples.

Results

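Alveolar type 1 cell genes were followed in whole lungs of mouse embryos in which Foxf1, a forkhead transcription factor gene, was overexpressed in endothelial and hematopoietic cells. The 8 genes, Ager, Pdpn, Hopx, Aqp5, Akap5, Rtkn2, Clic5 and Emp2, were taken as markers of alveolar type 1 cells, and every probe that the array annotation gives to them by gene ID, current symbol or alias was used. They had 13 of the 45281 probes on the Illumina mouse BeadChips, and 10 of these, covering all 8 genes, were among the 20118 probes detected well enough to be tested. The arrays compared 3 R26Foxf1; Tie2-cre lungs (labelled ROSA26Foxf1:Tie2-cre) with 3 R26-LSL-Foxf1 control lungs (labelled ROSA26-LSL-Foxf1), all at embryonic day (E) 18.5 and with 1 lung per array. Both groups carried the Foxf1 knock-in allele in the ROSA26 locus behind a lox-stop-lox cassette. In the controls, described as littermates, it stayed silent for want of Cre, and in the R26Foxf1; Tie2-cre lungs it was switched on by a Cre driven from the Tie2 (Tek) promoter. Embryos with Tie2-cre alone were not on these arrays, so Cre itself and the Foxf1 it releases cannot be told apart.

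Alveolar type 1 cells are the broad, thin epithelial cells that cover most of the gas exchange surface, and they share a basement membrane with the capillary endothelium beneath. In the mouse they arise before birth from progenitors at the distal tips of the airways, which also give rise to the cuboidal, surfactant-producing type 2 cells. They are epithelial, so they do not belong to the lineages in which Tie2-cre acts. The arrays read the RNA of all lung cells together, so fewer alveolar type 1 cells and less RNA per cell cannot be told apart here.

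Signals are given as log2 of the background-corrected and quantile normalized value. The threshold was a limma p, adjusted by Benjamini and Hochberg, under 0.05 together with a change of at least 1.2-fold, which was met by 4.51% of all tested probes in either direction and by 2.09% downwards. Between 19831 and 20043 probes per lung were detected at a detection p under 0.01. Several lungs stood apart. Xist, transcribed from the inactive X chromosome, was at 11.87 to 12.69 in 5 lungs and at 4.41 in R26Foxf1; Tie2-cre replicate 3, the 1 lung where the Y-linked Eif2s3y was detected. Thymocyte and lymphocyte markers were detected in control replicates 1 and 2 (7 and 8 of the 8 detected on any array), while 1 of the 8, Cd79b, was detected in each of the other 4 lungs. Skeletal muscle markers were highest in control replicate 2. The targeted gene, Foxf1, had a log2 signal of 10.771 to 10.927 in R26Foxf1; Tie2-cre lungs and of 10.152 to 10.767 in control lungs. The groups thus did not overlap, as for 31.9% of all tested probes. The log2 fold change was 0.31, higher in R26Foxf1; Tie2-cre lungs, with an adjusted p = 0.285 from limma. The paper reports Foxf1 overexpression in such lungs by quantitative RT-PCR and more FOXF1 protein by immunostaining.

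All 8 alveolar type 1 cell genes were detected in all 6 lungs, and none of them passed the threshold. Of the 10 tested probes, 0 were called by limma, against 4.51% of all tested probes. Before adjustment, 2 had a limma p under 0.05 and a 1.2-fold change (24.9% of all tested probes had both). The methods' t-test called 0 of the 10 after adjustment and 1 before it, where it called 0 and 3514 of all 20118 tested probes. By the brightest probe of each gene, 6 of the 8 genes had a lower mean in R26Foxf1; Tie2-cre lungs and 2 a higher one (Pdpn changed sides after median scaling and Hopx after cyclic loess), where 45.1% of all tested probes had a lower mean. The median log2 fold change of the 8 genes was −0.09, against 0.03 over all tested probes. The groups did not overlap for 1 of the 8 genes, Rtkn2, whereas they did not overlap for 31.9% of all tested probes (13.4% with R26Foxf1; Tie2-cre lungs lower).

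**Figure D1:**
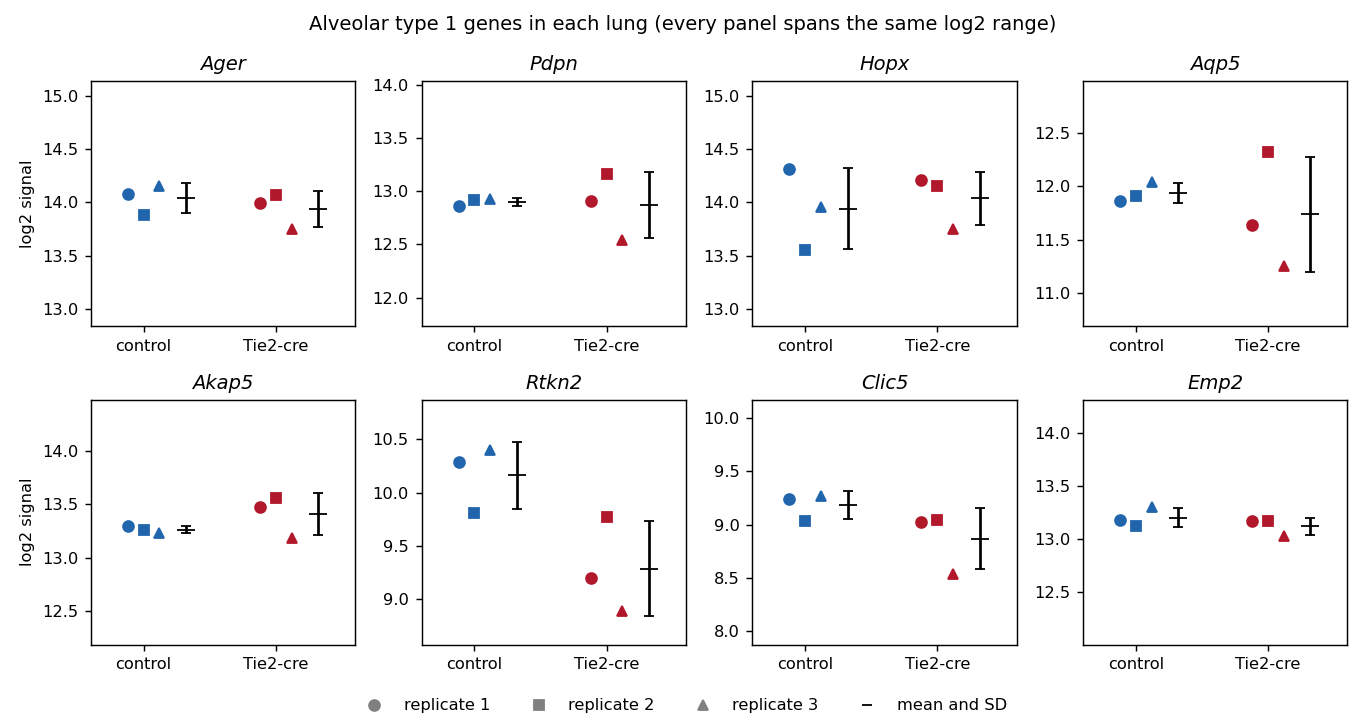
Log2 signal (vertical axis, the same span in every panel) of the brightest probe of each alveolar type 1 gene, with 1 point per lung, the marker shape giving the replicate, and the group mean and SD (n = 3) at the side of each group. Rtkn2 is the panel in which all 3 R26Foxf1; Tie2-cre lungs (8.89 to 9.77) lie below all 3 control lungs (9.80 to 10.40), and R26Foxf1; Tie2-cre replicate 3, the red triangle, is the lowest lung in every panel except Hopx.

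Ager encodes the receptor for advanced glycation end products (RAGE), a membrane receptor that lung epithelium carries at the basal surface of type 1 cells. Its brighter probe had a log2 signal of 14.08, 13.88 and 14.16 in control replicates 1, 2 and 3 and of 14.00, 14.07 and 13.75 in R26Foxf1; Tie2-cre replicates 1, 2 and 3. The groups overlapped. Its log2 fold change was −0.10 (standard error 0.13, adjusted p = 0.645 from limma), with a 95% interval of 0.759 to 1.14 times the control level, and the other probe gave −0.06 (adjusted p = 0.831). Emp2, which encodes a tetraspan membrane protein linked to integrin trafficking, varied least, at 13.13 to 13.30 in control lungs and 13.03 to 13.17 in R26Foxf1; Tie2-cre lungs. Its log2 fold change was −0.08 (adjusted p = 0.659), with an interval of 0.805 to 1.11 times control. Over the 6 lungs Ager and Emp2 were the closest pair of the 8 genes, with a root mean square distance of 0.0697 on the log2 scale once each gene was centred on its own mean. This distance is small for any genes that vary little, and Ager and Emp2 spanned only 0.41 and 0.27 over the lungs. It therefore does not show a shared pattern.

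Pdpn encodes podoplanin, also called T1-alpha, a mucin-like glycoprotein of the apical membrane of type 1 cells that lymphatic endothelium and mesothelium also make. The control lungs lay close together at 12.86, 12.91 and 12.92, and R26Foxf1; Tie2-cre replicates 1, 2 and 3 lay at 12.91, 13.16 and 12.54, both above and below them. The log2 fold change was −0.03 (standard error 0.16, adjusted p = 0.928), with an interval of 0.760 to 1.26 times control. Its sign was positive after median scaling (0.043) and without R26Foxf1; Tie2-cre replicate 3 (0.13). Of 6 lymphatic endothelial markers 0 were called, against 4.51% of all tested probes. Their median log2 fold change was 0.05, with summed signals of 4688 to 6996 in R26Foxf1; Tie2-cre and 5943 to 6216 in control lungs. For the 4 tested mesothelial markers, of 6, the count was also 0 (median −0.12, summed signals of 4118 to 7001 and 5278 to 6701), and Lrrn4 was not detected. Aqp5, the gene of the apical water channel of type 1 cells, also had its highest and lowest values in R26Foxf1; Tie2-cre replicates 2 and 3. It stood at 11.86, 11.91 and 12.05 in the control lungs and at 11.64, 12.32 and 11.25 in R26Foxf1; Tie2-cre replicates 1, 2 and 3. The mean was 11.94 ± 0.09 (SD, n = 3) in control lungs and 11.74 ± 0.54 (SD, n = 3) in R26Foxf1; Tie2-cre lungs, so the interval of the difference was wide, at 0.583 to 1.29 times control (log2 fold change −0.20, adjusted p = 0.641), and without R26Foxf1; Tie2-cre replicate 3 the log2 fold change was 0.041.

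Hopx encodes a small homeodomain protein that does not bind DNA itself and acts as a partner of serum response factor and histone deacetylases. It is transcribed in type 1 cells and also in the heart. Control replicates 1, 2 and 3 had log2 signals of 14.31, 13.55 and 13.96, a spread wider than that between the groups, and R26Foxf1; Tie2-cre replicates 1, 2 and 3 had 14.21, 14.15 and 13.76. The log2 fold change was 0.10 (standard error 0.21, adjusted p = 0.801, interval 0.763 to 1.501 times control), and it was −0.019 after cyclic loess. The lowest lung for Hopx, control replicate 2, had the highest mean of the skeletal muscle markers (2.99 above their average on the log2 scale, against 0.11 and 0.41 in the other controls). Heart muscle markers were lowest in R26Foxf1; Tie2-cre replicate 1 (−2.53, against −0.48 to 1.23 in the other lungs), a lung in which Hopx was not low. Of 6 tested skeletal muscle markers 0 were called (summed signals of 1400 to 4128 in R26Foxf1; Tie2-cre and 6401 to 49870 in control lungs). Likewise 0 of 7 tested heart muscle markers were called (6298 to 70930 and 20050 to 61170), against 4.51% of all tested probes. The part of these muscle markers in the Hopx values was not tested. A further Hopx probe was not detected on any array. Akap5, which encodes an anchoring protein for protein kinase A and calcineurin, was the other gene with a higher mean. It stood at 13.48, 13.56 and 13.19 in R26Foxf1; Tie2-cre replicates 1, 2 and 3 and at 13.30, 13.26 and 13.23 in the control lungs. The log2 fold change was 0.15 (adjusted p = 0.468), with an interval of 0.912 to 1.35 times control.

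For these genes the sequence at the start of transcription was read from RefSeq (GRCm38.p6), as 250 bases before and 50 bases from the start on. The table held 8 such windows for 7 of the 8 genes, with Hopx having a pair of starts. Both strands were searched for TGTTTAC (the core bound by forkhead factors, the family of FOXF1), CTTGAG (NKX2-1, a transcription factor of lung epithelium), GGAATG (TEAD factors, the partners of YAP and TAZ), TATAAA (the site of TBP, which places the start) and CCGCCC (SP factors). TGTTTAC was found in 1 of the 8 windows, Pdpn, and in 3.65% of all 32851 windows. CTTGAG was found in 2, both of Hopx, and in 15.9% of all. GGAATG and TATAAA were found in 0 of the 8, with 14.7% and 13.6% of all windows holding them, and CCGCCC was found in 5 of the 8, with 35.7% of all. A match is a description of the letters and not a bound site. The windows of Ager, a widely used marker of type 1 cells, and of Pdpn and Hopx, which held the forkhead and NKX2-1 matches, are shown 5′ to 3′, with the forkhead and NKX2-1 matches in capitals and all else in lower case.
Pdpn, chr4:143299515-143299814, minus strand, forkhead match from −153 to −147: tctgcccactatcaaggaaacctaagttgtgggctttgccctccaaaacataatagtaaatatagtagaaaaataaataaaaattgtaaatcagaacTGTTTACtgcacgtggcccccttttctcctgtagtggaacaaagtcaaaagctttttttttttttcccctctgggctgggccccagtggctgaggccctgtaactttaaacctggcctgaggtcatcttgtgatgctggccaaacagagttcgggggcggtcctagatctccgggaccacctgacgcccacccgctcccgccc
Hopx, downstream start, chr5:77095218-77095517, minus strand, NKX2-1 match from 37 to 42: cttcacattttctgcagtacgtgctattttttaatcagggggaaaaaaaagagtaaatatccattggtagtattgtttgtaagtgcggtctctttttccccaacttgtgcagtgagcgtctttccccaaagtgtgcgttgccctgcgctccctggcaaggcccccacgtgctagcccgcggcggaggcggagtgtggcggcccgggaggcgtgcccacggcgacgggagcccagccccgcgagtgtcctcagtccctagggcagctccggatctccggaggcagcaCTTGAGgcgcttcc
Hopx, upstream start, chr5:77115074-77115373, minus strand, NKX2-1 match from −112 to −107: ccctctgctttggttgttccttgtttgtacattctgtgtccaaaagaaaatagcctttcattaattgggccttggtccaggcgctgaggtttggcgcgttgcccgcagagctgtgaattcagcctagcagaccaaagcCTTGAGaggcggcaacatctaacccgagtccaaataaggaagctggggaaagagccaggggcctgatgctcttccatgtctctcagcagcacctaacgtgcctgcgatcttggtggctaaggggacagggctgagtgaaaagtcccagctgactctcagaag
Ager, chr17:34597600-34597899, plus strand, no match to these motifs: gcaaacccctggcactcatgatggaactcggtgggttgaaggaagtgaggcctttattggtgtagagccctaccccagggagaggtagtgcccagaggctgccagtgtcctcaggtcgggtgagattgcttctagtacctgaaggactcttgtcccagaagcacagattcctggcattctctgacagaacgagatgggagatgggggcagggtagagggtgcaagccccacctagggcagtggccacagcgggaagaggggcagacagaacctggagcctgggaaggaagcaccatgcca
Pdpn and Hopx, whose windows hold these matches, had log2 fold changes of −0.03 and 0.10, and Ager had one of −0.10.

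Rtkn2, which encodes rhotekin 2, was the alveolar type 1 gene with the largest difference. Its brighter probe had a log2 signal of 10.29, 9.80 and 10.40 in control replicates 1, 2 and 3 and of 9.20, 9.77 and 8.89 in R26Foxf1; Tie2-cre replicates 1, 2 and 3. Every R26Foxf1; Tie2-cre lung lay below every control lung, but replicate 2 of the one group and replicate 2 of the other were almost level. The R26Foxf1; Tie2-cre mean was 9.28 ± 0.45 (SD, n = 3) and the control mean 10.16 ± 0.32 (SD, n = 3). The log2 fold change was −0.88 (standard error 0.25), which is 1.84-fold lower, with an interval of 0.366 to 0.808 times control, an unadjusted p = 0.00784 and an adjusted p = 0.0806 from limma, so it did not pass the threshold. By the exact permutation test over the 6 lungs the two-sided p was 0.1, the smallest that 3 lungs against 3 allow. The second probe read the gene in the same order among the R26Foxf1; Tie2-cre lungs, at 8.97, 9.69 and 8.21, with control lungs at 10.19, 9.69 and 9.84. There the groups met (9.694 in R26Foxf1; Tie2-cre replicate 2 and 9.688 in control replicate 2), and the log2 fold change was −0.95 (standard error 0.34, adjusted p = 0.133). A further Rtkn2 probe was not detected on any array.

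The Rtkn2 difference passed the threshold in 2 of the 19 other fits tried. These were the fit with array weights (log2 fold change −0.97, adjusted p = 0.0321) and the fit without control replicate 2 (−1.06, adjusted p = 0.0494). It had the same direction in all 19, from −1.18 to −0.68 for the brighter probe and from −1.31 to −0.57 for the other one. The smallest values of both probes, −0.68 (adjusted p = 0.201) and −0.57 (adjusted p = 0.262), were those without R26Foxf1; Tie2-cre replicate 3. In human tissue RTKN2 is also made by lymphocytes, and lymphocyte markers were present in control replicates 1 and 2. Their summed signal was 578.5 to 7004 in control lungs and 582.2 to 697.6 in R26Foxf1; Tie2-cre lungs. By the brighter Rtkn2 probe the highest lung was control replicate 3, in which 1 of these markers was detected, as in each R26Foxf1; Tie2-cre lung. The mean centred log2 signal of the markers was −0.936 in control replicate 3 and −1 to −0.977 in the R26Foxf1; Tie2-cre lungs. By the second Rtkn2 probe the highest lung was control replicate 1, in which 7 of the markers were detected. With the lymphocyte signal of each lung as a covariate the log2 fold change was −1.18 for the brighter probe (adjusted p = 0.0858) and −0.97 for the second (adjusted p = 0.284). With control replicate 3 as the lone control, its spread being taken from the R26Foxf1; Tie2-cre lungs, the values were −1.11 (adjusted p = 0.148) and −0.88 (adjusted p = 0.389). Both of these fits rest on that single control lung with 1 marker detected, and the part of lymphocytes in the Rtkn2 difference was not tested.

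**Figure D2:**
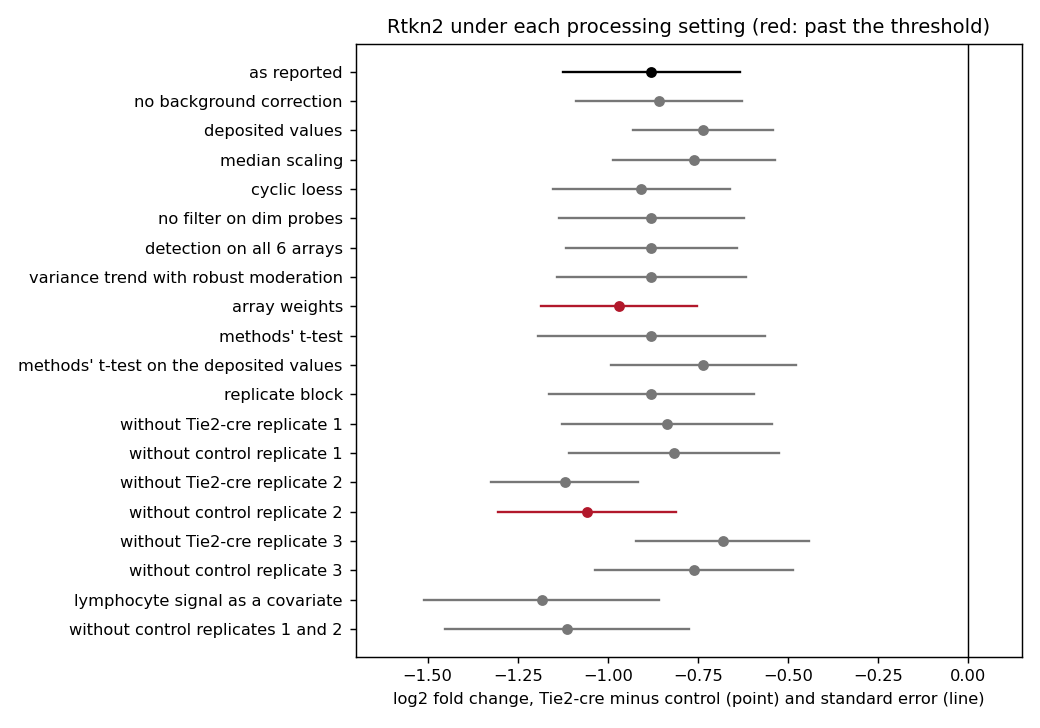
Log2 fold change of the brighter Rtkn2 probe (horizontal axis, R26Foxf1; Tie2-cre minus control, point) with its standard error (line) as reported and under each of 19 other settings. Every value is below 0, and the settings past the threshold, in red, are array weights (−0.97) and the fit without control replicate 2 (−1.06).

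Clic5, which encodes a chloride intracellular channel family protein that sits with ezrin-type linkers beneath the cell membrane, was next. The probe of its reference transcript had a log2 signal of 9.24, 9.03 and 9.27 in control replicates 1, 2 and 3 and of 9.02, 9.04 and 8.54 in R26Foxf1; Tie2-cre replicates 1, 2 and 3. The groups overlapped, because R26Foxf1; Tie2-cre replicate 2 was level with control replicate 2. The log2 fold change was −0.32 (standard error 0.16, adjusted p = 0.251 from limma), with an interval of 0.623 to 1.04 times control. A second Clic5 probe, annotated to a different cDNA, was not detected on any array. The intervals of the 7 genes other than Rtkn2 all included the control level, the widest being those of Aqp5 (0.583 to 1.29 times) and Hopx (0.763 to 1.501 times).

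**Figure D3:**
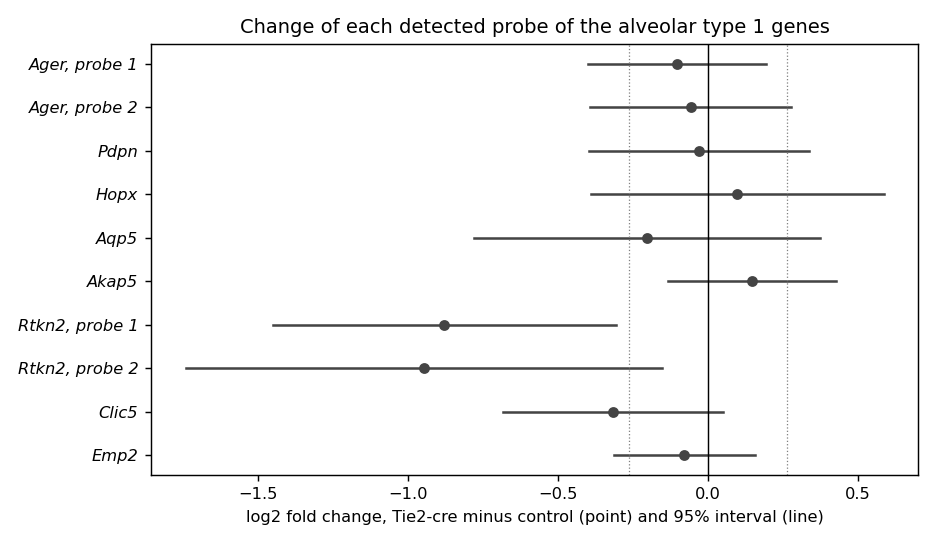
Log2 fold change (R26Foxf1; Tie2-cre minus control, point) with its 95% interval (line) for each of the 10 detected probes of the alveolar type 1 genes, with dotted lines at 1.2-fold in either direction. Both Rtkn2 probes (−0.88 and −0.95) have intervals below 0, and the intervals of the other 8 probes include 0.

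R26Foxf1; Tie2-cre replicate 3 was the lowest of the 6 lungs for 9 of the 10 tested probes of these genes, and for 7 of the 8 genes by the brightest probe. It was the lowest lung for 17% of all tested probes. The mean of the 8 genes in that lung was 0.38 below their average over all lungs on the log2 scale. The other 5 lungs ranged from −0.06 to 0.17. R26Foxf1; Tie2-cre replicate 2 was among the highest lungs (0.16) and R26Foxf1; Tie2-cre replicate 1 lay in between (−0.04). The embryo of replicate 3 was also the 1 lung without Xist. Its sex and its other properties cannot be told apart.

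A second list of 26 alveolar type 1 genes was examined, of which 25 were tested. Of these 0 rose and 1, Cav2, fell, with 17 means lower and 8 higher and a median log2 fold change of −0.23. Over all tested probes 4.51% were called in either direction, 2.09% were called lower, and 45.1% had a lower mean. By the p before adjustment and a 1.2-fold change 1 was higher and 2 were lower, where 24.9% of all tested probes met both. Cav2 encodes caveolin 2, a coat protein of the caveolae that are dense in type 1 cells and in capillary endothelium. It had a log2 signal of 9.91, 9.21 and 10.17 in control replicates 1, 2 and 3 and of 8.37, 8.84 and 8.01 in R26Foxf1; Tie2-cre replicates 1, 2 and 3, so the groups did not overlap. Its log2 fold change was −1.36 (standard error 0.29, adjusted p = 0.0458 from limma). Its partner Cav1 was at a log2 fold change of 0.01 (adjusted p = 0.973). Cav2 missed the threshold without any 1 lung except control replicate 2, with adjusted p values of 0.0522 without R26Foxf1; Tie2-cre replicate 2 and up to 0.145 without the others. It also missed it with no filter on dim probes (adjusted p = 0.1), with a variance trend (adjusted p = 0.0589) and in the methods' t-test (adjusted p = 0.171).

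Among genes of that list named here after their values were seen, Vegfa, the endothelial growth factor that type 1 cells supply to the capillaries, was at a log2 fold change of −0.35 (adjusted p = 0.305) by the brighter probe, with 11.17 in R26Foxf1; Tie2-cre replicate 3 and 11.78 to 12.07 in the other 5 lungs. The dimmer Vegfa probe had −0.47 (adjusted p = 0.207). It read 10.59, 10.56 and 9.94 in R26Foxf1; Tie2-cre replicates 1, 2 and 3 and 10.97, 10.52 and 11.01 in control replicates 1, 2 and 3. Spock2, which encodes a matrix proteoglycan, had −0.61 (adjusted p = 0.204) by the brighter probe and −0.13 (adjusted p = 0.767) by the other. Cldn18, the tight junction gene of alveolar epithelium, had a mean that was higher in R26Foxf1; Tie2-cre lungs (0.27, adjusted p = 0.146) with groups that did not overlap. R26Foxf1; Tie2-cre replicate 3 was the lowest lung for 19 of the 25 genes, as it was for most of the 8 genes above.

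**Figure D4:**
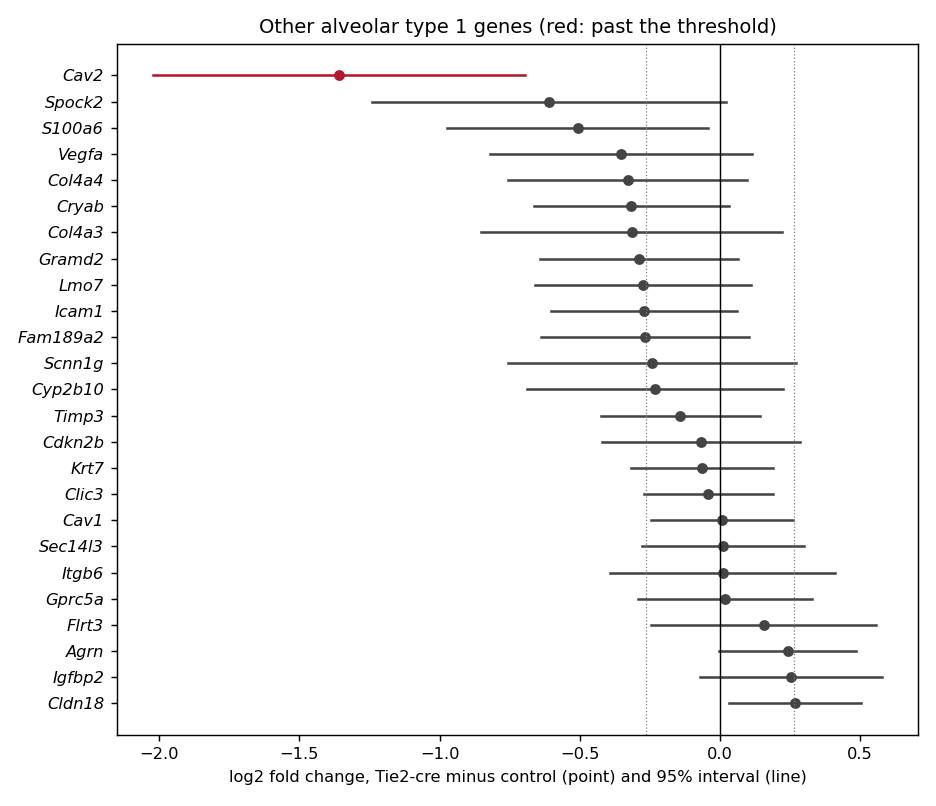
Log2 fold change (R26Foxf1; Tie2-cre minus control, point) with its 95% interval (line) for the brightest probe of 25 other alveolar type 1 genes, with dotted lines at 1.2-fold. Cav2 (−1.36), in red, is the 1 gene past the threshold, and Cldn18 (0.27) has the largest positive change.

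Genes whose levels over the 6 lungs lay closest to those of a type 1 gene were found by the root mean square distance of centred log2 signals among 11079 other genes. The pair nearest to Clic5 was Pcdhgb6 (0.029) and Gramd2 (0.041), the latter a gene of the second type 1 list. For Rtkn2 they were Gdpd2 (0.0989) and Tapbp (0.11). Those nearest to Aqp5 were Il1r2 (0.0389) and the complement gene Hc (0.0718), a gene of the type 2 list. Nrbp2 (0.0533) and Lhfp (0.0583) were nearest to Pdpn, and 1700029J07Rik (0.0978) and 4931406C07Rik (0.103) to Hopx. Ager, Akap5 and Emp2 spanned less than 0.5 on the log2 scale and were not compared in this way. These distances are descriptions of 6 lungs.

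The other alveolar epithelial fate was read in the same lungs. Of 14 type 2 cell markers, all tested, 0 were called, against 4.51% of all tested probes. Their means were lower for 11 and higher for 3, where 45.1% of all tested probes had a lower mean. The median log2 fold change of these markers was −0.13. The largest differences were those of Lyz2, a lysozyme gene that macrophages and neutrophils also express (−1.09, adjusted p = 0.0816 from limma), and Lamp3, which encodes a lamellar body membrane protein (−0.61, adjusted p = 0.0786). R26Foxf1; Tie2-cre replicate 3 was the lowest lung for 9 of the 14. Its mean over the list was −0.29, and that of the other lungs was −0.12 to 0.15. The difference in change between the type 1 and type 2 lists was not tested.

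**Figure D5:**
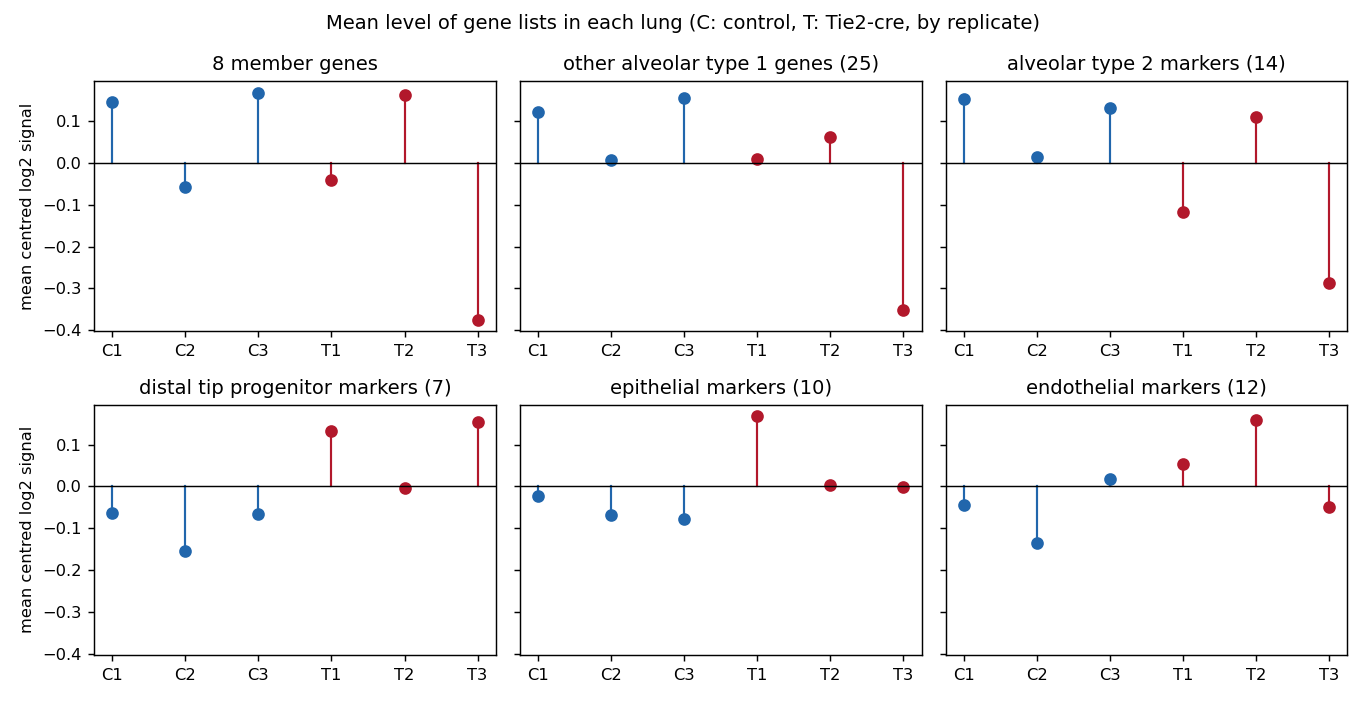
Mean centred log2 signal (vertical axis) in each control lung (C1 to C3) and each R26Foxf1; Tie2-cre lung (T1 to T3) for the 8 alveolar type 1 genes and for 5 other lists, each gene centred on its mean over the 6 lungs, with the number of genes in brackets. R26Foxf1; Tie2-cre replicate 3 is the lowest lung for the 8 genes (−0.38), the other alveolar type 1 genes (−0.35) and the type 2 markers (−0.29), and not for the distal tip (0.16) or endothelial markers (−0.05). Among the lists not shown, it is also the lowest for the airway epithelial markers (−0.33) and the close relatives and partners of the 8 genes (−0.25), and for no other.

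Regulators of the type 1 fate were also measured. Of 15, 13 were tested and 0 were called by the brightest probe, against 4.51% of all tested probes. Their median log2 fold change was 0.09, with 10 means higher and 3 lower (45.1% of all tested probes had a lower mean). The largest differences were those of Cebpa (−0.71, adjusted p = 0.0782 from limma), a transcription factor gene of type 2 and myeloid cells, and Tead3 (0.34, adjusted p = 0.164). The log2 fold change was 0.13 for Nkx2-1 (adjusted p = 0.622), 0.05 for Yap1 (adjusted p = 0.827) and 0.22 for Wwtr1, which encodes TAZ (adjusted p = 0.358), all 3 with overlapping groups and named after their values were seen. The dimmer probe of Gata6, an epithelial and mesenchymal transcription factor gene, rose (0.62, adjusted p = 0.0468), and its brightest probe did not (0.09, adjusted p = 0.617). Of 9 YAP and TAZ target genes 8 were tested and 0 were called. Tgfb2 had the largest difference (0.48, adjusted p = 0.0715) and Ccn1 the next (−0.36, adjusted p = 0.358), and the median was −0.04.

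Close relatives and binding partners of the 8 genes were the last group. Of 29, 21 were tested and 0 were called by the brightest probe, against 4.51% of all tested probes. Their median log2 fold change was −0.08. The largest differences were those of S100a8 (−1.12, adjusted p = 0.0645 from limma) and S100a9 (−0.84, adjusted p = 0.309). They encode neutrophil calcium-binding proteins that are ligands of RAGE. Among water channel genes, the log2 fold change was −0.16 for Aqp1 of capillary endothelium (adjusted p = 0.460) and −0.38 for Aqp4 (adjusted p = 0.120). Emp1, a relative of Emp2, had −0.08 (adjusted p = 0.663), and Clic4, a relative of Clic5, −0.12 (adjusted p = 0.574). Aqp1, Aqp4, Emp1 and Clic4 were named after their values were seen. Pmp22, a further relative of Emp2, fell by its dimmer probe (−0.90, adjusted p = 0.0432) and had −0.08 (adjusted p = 0.744) by the brightest. Hdac2, which encodes a histone deacetylase that HOPX binds, rose by its dimmer probe (1.46, adjusted p = 0.0378) and had −0.04 (adjusted p = 0.855) by the brightest. Each of these dimmer probes of Gata6, Pmp22 and Hdac2 missed the threshold in at least 4 of the 6 fits without 1 lung, with adjusted p values up to 0.142, 0.141 and 0.131. Endothelial cells, in which the transgene acts and which lie against the type 1 cells, had 12 of 13 markers tested and 0 called (median 0.08), with Tie1 (0.38, adjusted p = 0.0784) and Egfl7 (0.34, adjusted p = 0.0746) the largest. The marker not tested, Kdr (the gene of FLK1), was not detected on any array, so the arrays give no reading of it. Why its probe gave no signal was not tested. By immunostaining, the paper reports diminished FLK1 protein in R26Foxf1; Tie2-cre lungs.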

How the data were processed

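Whole-lung RNA was hybridized to Illumina mouse WG-6 v2.0 BeadChips, and all 6 arrays were used. The authors deposited a scanner signal (intensity) per probe, background-subtracted and scaled to a common mean, with a detection p-value against negative control probes. They also deposited log2-like values after robust spline normalization and variance stabilization (lumi, version not given in the sources used here). In limma 3.58.1 (R 4.3.3), neqc estimated the background from the detection p-values and quantile normalized the signals on the log2 scale with 16 as the offset. The 20118 probes detected at 0.01 or better on 3 or more arrays were tested with lmFit and eBayes, unpaired, with Benjamini-Hochberg adjustment over all of them. The threshold (0.05 after adjustment, 1.2-fold) follows the study. The t-test named in the study's methods was kept as an alternative, run here with a pooled variance on the same 20118 probes. It is called the methods' t-test, and it need not match the study's own run. Intervals are 95% from the moderated standard error. The fit was tested on simulated data.

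Symbols came from the array annotation, updated by gene ID (GRCm38.p6), and 34885 probes had 1 symbol. A gene was represented by its tested probe with the highest mean. The members, the 15 other lists (178 genes), the rule for named genes and the tests were chosen with earlier results of these data known. The rule named all members, in each list the called genes with the largest changes (up to 3 each way) or else the 2 largest changes, and the 2 genes nearest to each member spanning over 0.5. Alternatives covered background correction, scaling, filter, variance model, array weights, the methods' t-test, the threshold, the probe rule, a replicate block and each lung left out. The lymphocyte covariate and the omission of control replicates 1 and 2 were chosen after seeing the data. Promoter windows came from RefSeq. The labels call the lungs biological replicates, and their number limits the precision. Which lungs shared a litter is not given in the sources used here.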

Additional observations from a re-analysis of the deposited data

How the results depend on the processing

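The count of called probes over the whole array, 908 of 20118, ranged from 2 to 1703 when 1 lung was left out (2 without R26Foxf1; Tie2-cre replicate 3, 17 without R26Foxf1; Tie2-cre replicate 1 or control replicate 1, 92 without control replicate 3, 358 without R26Foxf1; Tie2-cre replicate 2, 1703 without control replicate 2). It was 58 with no filter on dim probes, 1860 with a variance trend and robust moderation and 2490 with array weights. It was 5009 with unadjusted p values, 0 with the methods' t-test on either table and 46 with the replicate number as a block. The paper reports many genes past the same threshold by its own t-test, a result that the t-test run here did not reproduce. The reason was not tested. Whether the replicate numbers pair the lungs cannot be told from 3 lungs per group. Deviations from the group means correlated at 0.293, −0.0355 and −0.0269 for pairs 1, 2 and 3. Of the 3 R26Foxf1; Tie2-cre lungs, 1 correlated best with its own number. No member probe was called in the block fit, and Rtkn2 had an adjusted p = 0.150 from limma there.

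Over the alveolar type 1 genes the count of called probes and of called genes, 0, became 1 with array weights, and 2 probes and 1 gene with unadjusted p values, and was 0 to 1 with 1 lung left out (1 without control replicate 2). In each case these were Rtkn2 probes. The count of other alveolar type 1 genes, 1, was 0 with no filter, the variance trend, the methods' t-test on either table, the replicate block, averaging the probes of each gene or without control replicates 1 and 2, 3 with unadjusted p values, and 0 to 1 with 1 lung left out.

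Of 190 log2 fold changes of single member probes under the alternatives, 180 kept their direction and side of the threshold, 2 passed it and 8 changed sign, all 8 near 0. Without R26Foxf1; Tie2-cre replicate 3 the dimmer Ager probe was at 0.081, Pdpn at 0.13 and Aqp5 at 0.041, and without R26Foxf1; Tie2-cre replicate 2, the other end of the range with 1 lung left out, they were at −0.18, −0.17 and −0.50. Pdpn was at 0.043 with median scaling, under which the median of all probes was 0.102. Hopx was at −0.019 with cyclic loess, −0.092 with array weights and −0.045 with the lymphocyte covariate, and from −0.097 (without control replicate 2) to 0.28 (without control replicate 1) with 1 lung left out. The causes were not tested. With 3 lungs per group, differences as small as those of most of these genes were not detectable after adjustment.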

Other observations

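Epithelial genes outside the alveolar type 1 lists were measured as well. Esrp1, which encodes an epithelial splicing regulator, rose in R26Foxf1; Tie2-cre lungs, at 9.21, 8.95 and 9.08 in replicates 1, 2 and 3 against 8.47, 8.66 and 8.60 in the control lungs (a log2 difference of 0.50 with a standard error of 0.11, adjusted p = 0.0498 from limma). It passed the threshold without control replicate 2 (adjusted p = 0.0484) and missed it without any other lung (0.0635 to 0.161), after cyclic loess (0.0536), with no filter on dim probes (0.0752), with a replicate block (0.108), with the lymphocyte covariate (0.115), without control replicates 1 and 2 (0.192) and in the methods' t-test (0.134, or 0.136 on the deposited values). Esrp1 was the 1 gene called among 10 tested epithelial markers of 11, whose median log2 fold change was 0.10. For comparison, 4.51% of all tested probes were called. Distal tip progenitor markers, 7 tested of 9, had 0 calls and a median of 0.14, with Etv4 (0.48, adjusted p = 0.130) and Sox9 (0.40, adjusted p = 0.140) the largest. Airway epithelial markers, 4 tested of 6, had 0 calls and a median of −0.25, with Cyp2f2 (−0.30, adjusted p = 0.388) and Tppp3 (−0.26, adjusted p = 0.277) the largest.

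Among 4 tested basal and squamous epithelial markers of 6, the keratin gene Krt17 fell, with 8.65, 9.66 and 8.33 in control replicates 1, 2 and 3 and 4.57, 7.37 and 5.00 in R26Foxf1; Tie2-cre replicates 1, 2 and 3 (adjusted p = 0.0483 from limma). The probe was detected in all 3 control lungs and in 1 of the 3 R26Foxf1; Tie2-cre lungs, replicate 2. It thus met the filter, detection on 3 or more arrays, through the control lungs, and was not tested where detection on all 6 arrays was required. The size of the difference depends on how signals near background are treated. On the log2 scale it was −3.23 as fitted and −1.38 on the deposited values. Without 1 lung Krt17 passed the threshold for R26Foxf1; Tie2-cre replicate 2 (adjusted p = 0.0213) and missed it for each of the others (0.0696 to 0.148). It also missed it with no filter on dim probes (0.113), with a variance trend (0.123), with the lymphocyte covariate (0.167), without control replicates 1 and 2 (0.221) and in the methods' t-test (0.185, or 0.173 on the deposited values). The summed signal of the list was 791.2 to 2268 in R26Foxf1; Tie2-cre lungs and 1861 to 3755 in control lungs, with Krt6a not detected. Skeletal muscle markers had 6 tested of 8 and 0 calls, against 4.51% of all tested probes called. Mylpf (−3.06, adjusted p = 0.0700) and Myh8 (−2.66, adjusted p = 0.0919) had the largest differences among these markers. The groups did not overlap for 5 of the 6, against 31.9% of all tested probes (13.4% with R26Foxf1; Tie2-cre lungs lower). These markers had their highest values in control replicate 2, which was also the highest lung for Krt17. The part of these markers in the Krt17 difference was not tested.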
